A study of Homo sapiens with 18 samples.

Results

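TG003 is a small-molecule inhibitor of the CDC-like kinases (CLK), and JJN3 is an established human plasma cell line from the myeloma group of tumours, in which a translocation switches on the oncogene MAF. The RNA of 3 JJN3 libraries given TG003 at 0.4 mM for 24 h was compared with that of 3 JJN3 libraries labelled as untreated with DMSO, the solvent, for which no duration is stated. These are 6 of the series' 18 RNA-seq libraries, made from poly(A)-selected RNA. The genes described are the protein-coding ones without pseudogenes and without the ribosomal protein symbols RPL and RPS, which makes 19304 of the 57905 genes in the count files. Of these, 11915 passed a filter on low counts and were tested, and 100 protein-coding genes with an RPL or RPS symbol were left out.

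Other groups were used only for comparison. They were 3 JJN3 libraries given amiloride, a diuretic that blocks sodium channels and sodium-proton exchangers, at 0.4 mM for 24 h, and 3 libraries each of the myeloma line KMS12-BM given TG003 at 0.4 mM for 24 h or labelled as untreated with DMSO. The 3 KMS12-BM libraries given amiloride at 0.1 mM for 24 h entered only the fit over all 18 libraries. All cells were grown in RPMI medium. Each line is a single cell line. Nothing in the labels tells separate cultures from repeats of 1 culture within a group, so every p-value measures only the spread between these samples, which may be technical.

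CLK kinases add phosphate to SR proteins, which bind exons and recruit the spliceosome, and this phosphorylation moves SR proteins out of nuclear speckles and sets which exons are kept. TG003 competes with ATP at CLK1 and CLK4 and is known to act on CLK2, on DYRK kinases and on casein kinase 1 as well. The messengers of CLK kinases are themselves spliced under CLK control, and plasma cells, which secrete large amounts of antibody, depend on the transcription factor IRF4, on the ER folding machinery and on lipid synthesis for their membranes. The files give reads per gene, so they show gene levels and not splice forms.

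Levels are given as CPM, counts per 1000000 reads of the TMM-adjusted library size, and a gene was called where edgeR's quasi-likelihood test gave a Benjamini-Hochberg adjusted p under 0.05 over all genes tested in the line. Log2 fold changes are TG003 over DMSO and carry their standard error (SE). CPM is relative to the rest of the library, and in bulk RNA fewer cells of a kind and less RNA per cell cannot be told apart. A library held 27563679 to 44601334 reads in genes with TG003, against 25265042 to 37551639 with DMSO. Plasma cell markers were present in all 6 libraries, among them SDC1 (81.3 to 96.4 CPM with TG003, against 148 to 171 CPM with DMSO), PRDM1, XBP1, MZB1, POU2AF1 and IRF4, and so was MAF (715 to 884 CPM with TG003, against 726 to 1012 CPM with DMSO). CD38 was low (2.07 to 3.23 CPM with TG003, against 3.27 to 5.16 CPM with DMSO), and the B cell marker PAX5 reached at most 0.0545 CPM. Of 27 markers of other blood and stromal cells, 8 had no read, and their summed level was 57.7 to 64.2 CPM with TG003, against 85.5 to 99.9 CPM with DMSO.

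The TG003 libraries placed reads differently from the DMSO libraries, and this came before any result on single genes. Processed pseudogenes, genomic copies of spliced messengers, held 0.113% to 0.13% of the reads in genes with TG003, against 5.45% to 5.61% with DMSO. Reads aligned to more than 1 place made up 8.34% to 9.13% with TG003, against 16.6% to 17.4% with DMSO. Ribosomal protein genes held 7.56% to 7.92% with TG003, against 3.73% to 3.96% with DMSO. In KMS12-BM the 3 shares differed in the same directions. Processed pseudogenes held 0.106% to 0.13% with TG003, against 5.45% to 5.61% with DMSO, and reads aligned to more than 1 place made up 7.79% to 8.23% with TG003, against 16.1% to 16.2% with DMSO. Ribosomal protein genes held 10.2% to 11.9% with TG003, above the JJN3 libraries with TG003, against 4.53% to 4.8% with DMSO. With amiloride processed pseudogenes held 4.49% to 4.64% in JJN3 and 4.55% to 4.91% in KMS12-BM. The group and this difference in placement cannot be told apart. A member gene was therefore marked as having a near copy where its longest transcript aligned over at least 100 bases at 90% identity or more outside its own locus, where an exon overlapped an annotated pseudogene, or where a pseudogene was named after it. Of the 11915 genes tested, 8504 had no near copy. Reads with no gene feature also differed, at 6.42% to 7.17% with TG003, against 11.4% to 11.8% with DMSO. Genes with no near copy therefore need not be free of the difference in placement.

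The change was broad and mostly small. Of the 11915 genes tested, 6593 (55.3%) were called, 3329 higher with TG003 (27.9%) and 3264 lower (27.4%), and the median log2 fold change was -0.0017. At least 2-fold changes were fewer, with 548 genes higher (4.6%) and 513 lower (4.31%). Among the 8504 genes with no near copy, 2200 were higher (25.9%) and 2466 lower (29%), 302 (3.55%) and 396 (4.66%) of them by at least 2-fold, around a median of -0.03. Over all 15704 genes tested, of every class, 58.3% were called. The 3 CPM values of the groups did not overlap in 7650 genes (64.2%), or 5424 (63.8%) of those with no near copy. Changes past 16-fold were found in 63 genes, of which 50 had a near copy.

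**Figure D1:**
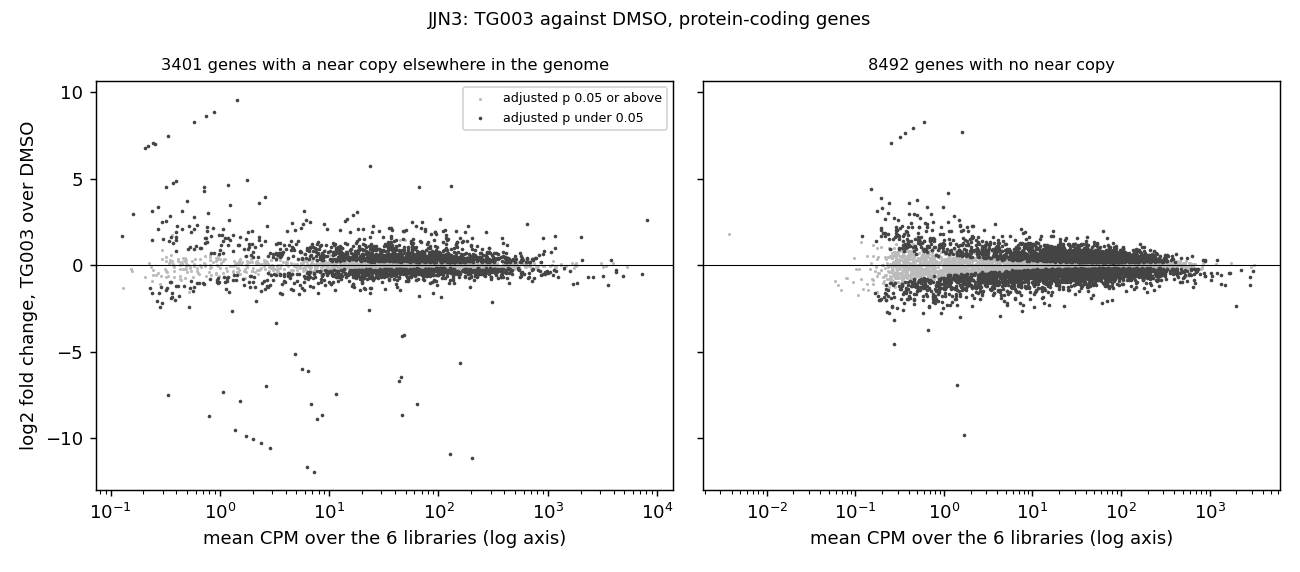
Log2 fold change of TG003 over DMSO in JJN3 (y axis) against the mean CPM of the 6 libraries (x axis, log scale) for the tested protein-coding genes that carry a symbol, 3401 with a near copy elsewhere in the genome (left) and 8492 with none (right). Dark points have an adjusted p under 0.05. The falls beyond 5 on the log2 scale lie mostly on the left, while on the right most genes stay within 1 on either side of 0.

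All 12 of the largest falls and all 12 of the largest rises by fold, among called genes with a mean of at least 5 CPM and no overlap between groups, had a near copy. The 12 falls ran from -11.94 to -6.45 on the log2 scale and every one averaged at most 0.995 CPM with TG003. They include retrocopies of other genes, such as PPP1R2B, GNG5B, PABPC3, UQCRHL, GLUD2 and CSNK2A3. PPP1R2B had 0 reads in all 3 TG003 libraries, against 15.7, 14.8 and 13.6 CPM with DMSO, so it was at least 505.2-fold lower, computed against a floor of 3 counts over the 3 TG003 libraries. The 12 rises ran from 2.51 to 5.73, and 6 of them have an annotated pseudogene named after them. GCSH, a carrier protein of the glycine cleavage system, had 43.3, 47.2 and 49.5 CPM with TG003, against 0.818, 0.899 and 0.9001 CPM with DMSO (log2 5.73 ± 0.19). When the counts of each pseudogene were added to the parent it is named after, the value for GCSH was 0.57, that for FABP5 1.01 in place of 4.60, that for EEF1A1 0.85 in place of 2.61 and that for CDC26 1.47 in place of 2.56. ATP6V0C was at 3.14 before and 3.10 after. The 6 other rises, RAMAC, GTF2H2C, NPIPB4, TMA7, NBPF8 and GTF2H2, have no pseudogene named after them to add, and stood at 2.50 to 3.08. PSMC1, a proteasome ATPase called as higher at 4.53 ± 0.12, was at -0.05 with those counts added and was not called (adjusted p = 0.63). EEF1B2, EIF4E and PDIA3, called as higher at 1.94, 1.33 and 1.34, were called as lower at -0.383, -0.302 and -0.375. For some of the lists below, counts are therefore also given for genes with no near copy. The other list counts include genes with near copies. Each list count of TG003 against DMSO is to be read beside the shares of all genes tested, 27.9% higher and 27.4% lower. A near copy is stated where a gene is first described. Genes described beyond the rule in the methods were chosen after their values were seen.

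Among genes with no near copy, the same ranking named 12 rises and 12 falls; this ranking was added after values were seen. The rises were led by NMU, which encodes the peptide neuromedin U (log2 2.12 ± 0.36), RARS2, a mitochondrial arginyl-tRNA synthetase (2.01 ± 0.15), and CLK1 (1.99 ± 0.14). Others were DDX60L (1.93 ± 0.14), LHPP (1.90 ± 0.13), the replication polymerase subunit POLE2 (1.68 ± 0.26), CSKMT (1.68 ± 0.20), IFT43 of intraflagellar transport (1.67 ± 0.15), the phosphatidylethanolamine methyltransferase PEMT (1.67 ± 0.12), CES4A (1.66 ± 0.19), the Golgi trafficking gene SCFD1 (1.63 ± 0.25) and the triglyceride synthesis enzyme DGAT1 (1.60 ± 0.10). RARS2 had 27.5, 26.1 and 28.4 CPM with TG003, against 8.79, 6.402 and 5.11 CPM with DMSO. DGAT1 had 51.1, 45.7 and 46.4 CPM with TG003, against 15.2, 17.4 and 14.4 CPM with DMSO. In both genes every TG003 library lay above every DMSO library by a wide margin.

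The 12 falls in genes with no near copy held several secreted signals and their receptors. CCR2, a chemokine receptor, had 6.404, 6.75 and 8.76 CPM with TG003, against 32.8, 36.04 and 45.5 CPM with DMSO (log2 -2.38 ± 0.15), and its ligand CCL2 had 4.96, 2.48 and 2.64 CPM with TG003, against 22.6, 12.4 and 17.5 CPM with DMSO (-2.41 ± 0.36). IGF1, a growth and survival factor for myeloma cells, had 27.2, 26.7 and 26.02 CPM with TG003, against 104, 109 and 122 CPM with DMSO (-2.07 ± 0.09). No TG003 library reached the lowest DMSO library in any of the 3. The other falls were the helicase DDX47 (-2.66 ± 0.30), INSIG1 (-2.34 ± 0.20), the muscle-type AMP deaminase AMPD1 (-2.32 ± 0.30), the peptide hormone APLN (-2.29 ± 0.14), the membrane protein EMP1 (-2.27 ± 0.25), WNT10A (-2.20 ± 0.12), the cyclin-dependent kinase inhibitor CDKN1C (-2.19 ± 0.20), the BCMA receptor gene TNFRSF17 (-2.17 ± 0.25) and the EGF-family ligand HBEGF (-2.17 ± 0.16). By difference in mean CPM, the largest rises with no near copy were ODC1 of polyamine synthesis (0.30 ± 0.08), ANKRD12 (0.52 ± 0.11), FLNA (0.33 ± 0.09), DNMT1, the maintenance DNA methyltransferase (0.64 ± 0.07), and VIM (0.31 ± 0.12, adjusted p = 0.0416). The call for VIM was lost when each of the 6 libraries was left out in turn (0.27 to 0.34, adjusted p from 0.0648 to 0.123) and with the library number as a block (adjusted p = 0.0657). The largest falls by that measure were INSIG1, HLA-DRA, CD74, NDRG1 and IL32.

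Messengers of the drug's own targets rose. CLK1, on chromosome 2 from 201717732 to 201729414 (GRCh37, minus strand), had 90.1, 109 and 102 CPM with TG003, against 22.9, 26.9 and 25.98 CPM with DMSO, a log2 fold change of 1.99 ± 0.14 (edgeR adjusted p = 1.84e-07). CLK4 had 25.6, 30.6 and 29.4 CPM with TG003, against 10.2, 13.02 and 12.9 CPM with DMSO (1.25 ± 0.12, adjusted p = 1.6e-06). CLK2, which has a near copy, had 106, 116 and 109.8 CPM with TG003, against 47.03, 45.8 and 46.5 CPM with DMSO (1.25 ± 0.11, or 0.92 with pseudogene counts added to parents). In these 3 genes each TG003 library exceeded every DMSO library about 2-fold or more. CLK3, with a near copy, had 66.1, 57.8 and 57.1 CPM with TG003, against 50.5, 49.1 and 56.9 CPM with DMSO, with groups that nearly touch. Its value of 0.21 ± 0.09 missed the threshold (adjusted p = 0.0539) and was called with upper-quartile scaling (0.0415), with the library number as a block (0.0352), when the amiloride libraries were left out (0.0485) and without DMSO replicate 3 (0.0252). With 3 of 4 members higher and 0 lower (edgeR, DESeq2 and limma voom, and 0 at an unadjusted p under 0.05), the CLK list had a median of 1.25.

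Kinases of the same circuit moved both ways, as did all genes tested (27.9% higher, 27.4% lower). Of 20 tested genes for SRPK, DYRK, HIPK and casein kinases and PRPF4B, 8 were higher and 6 lower, around a median of -0.06. Of the 12 with no near copy, 3 were higher and 6 lower (median -0.19). Among the casein kinase 1 genes, which encode other known targets of TG003, CSNK1D rose (190, 170.1 and 183 CPM with TG003, against 114, 112 and 116 CPM with DMSO; log2 0.67 ± 0.08). DYRK1B rose to 4.998, 5.399 and 5.02 CPM with TG003, against 2.13, 2.72 and 2.74 CPM with DMSO (1.02 ± 0.17). Neither overlapped, and PRPF4B, a kinase of the spliceosome with a near copy, rose by 0.37 ± 0.07. DYRK2 (-0.42 ± 0.09), HIPK1 (-0.26 ± 0.07), HIPK2 (-0.64 ± 0.10) and HIPK3 (-0.33 ± 0.09) were lower. DYRK1A was at 0.05 ± 0.07 and SRPK1, with a near copy, at -0.07 ± 0.08, neither called. The count of higher members was 4 without TG003 replicate 1, 5 without TG003 replicate 3, DMSO replicate 1 or DMSO replicate 2, and 5 with pseudogene counts added to parents.

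The SR proteins, substrates of CLK kinases, changed little at the gene level. Of 12 tested, 2 were higher and 5 lower, and the median was 0.01. SRSF4 moved most and had 96.8, 94.04 and 97.2 CPM with TG003, against 167, 151 and 147 CPM with DMSO (log2 -0.69 ± 0.07, adjusted p = 1.94e-06). SRSF6, with a near copy, had 285, 302 and 301 CPM with TG003, against 249.9, 233 and 228 CPM with DMSO (0.32 ± 0.07, or 0.16 and still called with pseudogene counts added to parents, adjusted p = 0.0447). The groups did not overlap in either gene. SRSF1 (-0.23 ± 0.09), SRSF2 (-0.20 ± 0.07), SRSF9 (-0.24 ± 0.07) and TRA2A (-0.26 ± 0.09) were called as lower and SRSF5 as higher (0.23 ± 0.07). SRSF1, SRSF2, SRSF3, SRSF9, SRSF10 and SRSF11 have near copies. The count of lower SR genes was 1 without DMSO replicate 1, 2 without TG003 replicate 1, and 3 without TG003 replicate 2, TG003 replicate 3 or DMSO replicate 2. SRSF9 lost its call without DMSO replicate 1 (-0.17). SRSF1 kept its call without DMSO replicate 3 and lost it without each other library (-0.24 to -0.20). The call for SRSF2 was lost without TG003 replicate 1, TG003 replicate 2, DMSO replicate 1 or DMSO replicate 2 (-0.20 to -0.17) and with no filter, that for TRA2A without TG003 replicate 1, TG003 replicate 3 or DMSO replicate 1 (-0.28 to -0.15), and that for SRSF5 without DMSO replicate 2 (0.20) and with a GC trend removed (0.17). SRSF3 (0.15 ± 0.09), SRSF7 (0.15 ± 0.08), SRSF10 (-0.04 ± 0.08), SRSF11 (0.08 ± 0.09) and TRA2B (0.06 ± 0.08) were not called, although SRSF3 was without DMSO replicate 3 (0.24).

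**Figure D2:**
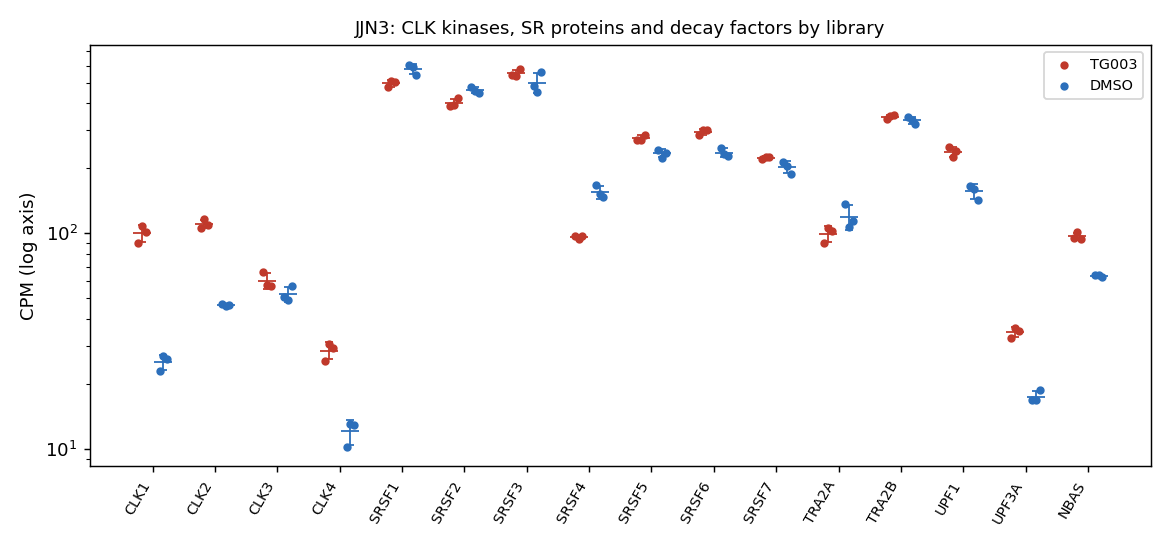
CPM (log axis) of CLK kinases, SR proteins and decay factors in each JJN3 library, with TG003 (red, left of each pair) and DMSO (blue, right); bars give the mean and SD of the 3 libraries. CLK1, CLK2 and CLK4 stand clear of their DMSO values, SRSF4 lies below them, and the other SR genes sit close to DMSO.

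Splicing factors around the SR proteins rose more often than they fell. Of 36 SR-related splicing proteins, 14 were higher and 3 lower (median 0.13). The count of higher members was 8 without TG003 replicate 2 and 9 without TG003 replicate 3, DMSO replicate 2 or DMSO replicate 3. RBM5, an RNA-binding regulator of apoptosis genes, had 144, 151 and 148 CPM with TG003, against 105, 84.4 and 90.9 CPM with DMSO (0.66 ± 0.09). CLASRP, named for its binding to CLK4, was at 0.66 ± 0.13, the U1-associated LUC7L at 0.62 ± 0.09 and RBM39, with a near copy, at 0.61 ± 0.08. RSRP1 rose most of the 36 (1.08 ± 0.15, near copy). The lower members were THRAP3 (-0.50 ± 0.07, near copy), LUC7L2 (-0.26 ± 0.07) and SREK1IP1 (-0.21 ± 0.07, near copy), and the last lost its call without TG003 replicate 1 or DMSO replicate 2 (-0.19 and -0.18) and with no filter (adjusted p = 0.0641). The exon junction factor RNPS1, with a near copy, was called (0.48 ± 0.07), but with pseudogene counts added to parents it was at 0.07 (adjusted p = 0.355).

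Core spliceosome genes were mostly higher. Of 55 tested, 36 were higher and 4 lower (median 0.37), and of the 31 with no near copy 18 were higher and 4 lower (median 0.28). PLRG1, a subunit of the PRP19 complex, had 122, 128 and 124 CPM with TG003, against 67.5, 70.2 and 65.5 CPM with DMSO (0.88 ± 0.08, adjusted p = 5.18e-07). The helicase AQR had 93.4, 93.5 and 90.7 CPM with TG003, against 58.5, 57.1 and 65.01 CPM with DMSO (0.62 ± 0.08). PRPF4 of the tri-snRNP had 116, 108 and 109.8 CPM with TG003, against 73.5, 73.5 and 67.4 CPM with DMSO (0.63 ± 0.07). In all 3 the lowest TG003 library lay well above the highest DMSO library. The lower members were SF3B5 (-0.41 ± 0.10), SNRPD3 (-0.29 ± 0.09), PRPF8 (-0.21 ± 0.08) and PRPF38B (-0.20 ± 0.07). Their count was 1 without TG003 replicate 3 and 2 without DMSO replicate 1 or DMSO replicate 2, and SF3B5 was the lower member whose call held without each library in turn. The 3 largest values belonged to genes with near copies. SNRPG was at 2.48, SNRPA1 at 2.27 and SNRPE at 1.91, and with pseudogene counts added to parents they stood at 1.51, 0.65 and 0.35. Of 28 hnRNP genes, 11 were higher and 4 lower (median 0.01), but of the 8 with no near copy 1 was higher, the T cell splicing factor HNRNPLL (0.78 ± 0.12), and 0 lower.

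Factors of nonsense-mediated decay, which removes messengers with early stop codons, were higher in 12 of 18 and lower in 0 (edgeR, DESeq2 and limma voom; 0 at an unadjusted p under 0.05), with a median of 0.31. Of the 8 with no near copy 5 were higher (median 0.20). UPF1, the central helicase, had 252, 225 and 239.9 CPM with TG003, against 166, 161 and 143 CPM with DMSO (0.61 ± 0.09, adjusted p = 9.28e-05). NBAS had 95.03, 101 and 94.5 CPM with TG003, against 63.8, 63.7 and 62.4 CPM with DMSO (0.61 ± 0.07), and SMG9 was at 0.63 ± 0.10 and UPF2 at 0.23 ± 0.07. UPF3A, with a near copy, had 32.7, 36.3 and 35.1 CPM with TG003, against 16.8, 16.9 and 18.7 CPM with DMSO (0.99 ± 0.08, or 0.57 with pseudogene counts added to parents). None of the 3 genes overlapped between groups. Of 33 genes of transcription elongation and termination 14 were higher and 4 lower (median 0.11). XRN2, the nuclease that ends transcription behind the polymerase, had 227, 236 and 234 CPM with TG003, against 82.6, 87.6 and 122 CPM with DMSO (1.26 ± 0.13). HEXIM1, the inhibitor of P-TEFb, was lower (-0.48 ± 0.09), and CDK9, the kinase of P-TEFb, higher (0.39 ± 0.07).

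Cholesterol synthesis genes fell together. The SREBP factors switch on this pathway when membrane sterol is low, and INSIG1 holds their escort SCAP in the ER. Of 30 tested genes, 22 were lower and 2 higher, with a median of -0.54, and of the 22 with no near copy 15 were lower and 2 higher (median -0.44). INSIG1, on chromosome 7 from 155089486 to 155101945 (GRCh37, plus strand), had 536, 614 and 796 CPM with TG003, against 2642, 3178 and 4035 CPM with DMSO, a fall to 649 ± 134 CPM in TG003 libraries, against 3285 ± 703 CPM in DMSO libraries (SD, n = 3 each; log2 -2.34 ± 0.20, edgeR adjusted p = 6.38e-06). HMGCS1, the synthase that opens the pathway, had 106, 124 and 119 CPM with TG003, against 447, 515 and 553 CPM with DMSO (-2.12 ± 0.10, near copy). The groups lay more than 3-fold apart in both genes.

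Enzymes along the pathway followed at smaller size. MSMO1 (-1.63 ± 0.09), FDFT1, which commits farnesyl units to sterols (-1.23 ± 0.06), and IDI1 (-1.11 ± 0.08), all with near copies, were lower, as were the squalene epoxidase SQLE (-0.88 ± 0.09) and the reductase DHCR7 (-0.78 ± 0.08). SQLE had 172, 188 and 189 CPM with TG003, against 306, 355 and 347 CPM with DMSO. The sterol carrier STARD4 had 30.4, 34.8 and 33.1 CPM with TG003, against 64.9, 73.5 and 74.9 CPM with DMSO (-1.12 ± 0.09). In both genes the highest TG003 library stayed below the lowest DMSO library. The factor SREBF2 was lower by less (-0.39 ± 0.07), and SCAP was higher (0.48 ± 0.08). The exporters ABCA1 (-0.17 ± 0.14) and ABCG1 (0.51 ± 0.45) were not called.

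Fatty acid genes moved both ways, with 10 of 19 lower, 4 higher and a median of -0.28, or 6 lower and 4 higher of the 13 with no near copy (median 0.08). The median of the 19 was -0.077 without DMSO replicate 3, -0.097 without DMSO replicate 1, -0.121 without DMSO replicate 2, -0.119 without TG003 replicate 3 and 0 with no filter. The desaturase FADS1 had 165, 166 and 159.6 CPM with TG003, against 361, 359 and 382 CPM with DMSO (-1.17 ± 0.06), and its neighbour FADS2 had 395, 386 and 369 CPM with TG003, against 706, 769 and 691 CPM with DMSO (-0.91 ± 0.07). SCD, which makes oleate, was at -1.03 ± 0.09 and FASN at -0.53 ± 0.12, both with near copies, and ACLY at -0.33 ± 0.09. The higher members act in triglyceride and phospholipid assembly: DGAT1 (1.60 ± 0.10), LPIN1 (0.51 ± 0.07), GPAM (0.41 ± 0.09) and DGAT2 (0.32 ± 0.08).

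The INSIG1 promoter is shown because it had the largest fall of the sterol list; the sequences here and below are RefSeq promoters on GRCh38.p14, 250 bases before to 50 bases after the annotated gene start. It spans chr7:155297628-155297927 on the plus strand, and the capitals mark an E-box (letters CACGTG, a sequence bound by several basic helix-loop-helix factors), 55 bases before the start. The motif was searched on both strands.
INSIG1: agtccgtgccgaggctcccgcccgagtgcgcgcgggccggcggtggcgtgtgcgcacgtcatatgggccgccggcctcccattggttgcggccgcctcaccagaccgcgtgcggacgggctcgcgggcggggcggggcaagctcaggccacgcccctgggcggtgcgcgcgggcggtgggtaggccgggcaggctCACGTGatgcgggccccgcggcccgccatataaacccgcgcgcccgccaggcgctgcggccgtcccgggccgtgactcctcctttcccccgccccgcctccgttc
The E-box was in 5 of the 23 promoters of the sterol list that the table holds (21.7%), against 10.3% of the 9732 promoters of tested genes and 7.43% of all 27305 promoters. The sterol regulatory element searched as TCACNCCAC on both strands was in 1 of the 23 (4.35%), against 1.13% of the promoters of tested genes. That promoter was the one of SREBF2, and the INSIG1 promoter had no match. A match is a description of the letters only.

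Genes of glycolysis and of the response to low oxygen fell as a group. The HIF factors switch on most of them when oxygen is short, and several of their targets are glycolytic enzymes. Of 37 tested, 29 were lower and 3 higher (median -0.75), and of the 19 with no near copy 15 were lower and 0 higher (median -0.92). NDRG1, a stress-response gene induced by hypoxia, had 959.8, 916 and 936 CPM with TG003, against 1951, 1981 and 2244 CPM with DMSO (-1.14 ± 0.09, adjusted p = 1.44e-07). SLC16A3, the lactate exporter, had 19.5, 17.6 and 18.3 CPM with TG003, against 38.5, 41.1 and 43.2 CPM with DMSO (-1.15 ± 0.09). VEGFA, the vessel growth factor, had 93.4, 117 and 105 CPM with TG003, against 210.2, 259.7 and 316 CPM with DMSO (-1.31 ± 0.15). Groups did not overlap in any of the 3, and the DMSO libraries of VEGFA were the more spread.

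Glycolytic enzymes were lower along most of the pathway. The aldolase ALDOA had 2374, 2057 and 2334 CPM with TG003, against 4799, 4752 and 5234 CPM with DMSO (-1.13 ± 0.09, near copy). GPI was at -0.87 ± 0.08, the regulator PFKFB3 at -0.90 ± 0.08, ENO1 at -0.64 ± 0.08, PGK1 at -0.72 ± 0.08, PKM at -0.70 ± 0.08, LDHA at -0.68 ± 0.08 and GAPDH at -0.53 ± 0.09, the last 5 with near copies. Further genes with no near copy fell too. PFKFB4 had 35.02, 38.2 and 20.6 CPM with TG003, against 134, 139.8 and 104 CPM with DMSO (-2.01 ± 0.21), ALDOC had 138, 132 and 149.8 CPM with TG003, against 252, 267 and 336 CPM with DMSO (-1.03 ± 0.10), and ENO2 had 24.9, 24.8 and 23.9 CPM with TG003, against 44.5, 54.6 and 56.6 CPM with DMSO (-1.08 ± 0.11). Each again showed no overlap. PFKL (0.04 ± 0.10), PFKM (0.07 ± 0.11), PFKP (0.13 ± 0.08), HK1 (0.06 ± 0.12, near copy) and PDK3 (0.01 ± 0.11) were not called. The higher members were HIF1A (0.19 ± 0.07), TPI1 (0.22 ± 0.07) and PGAM1 (1.32 ± 0.07), all with near copies, and without TG003 replicate 1 the count of higher members was 1. HIF1A kept its call without DMSO replicate 3 and lost it without each other library (0.16 to 0.19), with no filter and with a GC trend removed. With pseudogene counts added to parents TPI1 was called as lower (-0.394). The mitophagy receptor BNIP3L (-0.75 ± 0.07, near copy) and the ER oxidase ERO1A (-0.76 ± 0.08) were lower.

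The promoters of ALDOC and ENO2 are shown because both genes fell with no near copy and hold the core letters of the hypoxia response element, ACGTG, in capitals on either strand. ALDOC lies on chr17:28576846-28577145 on the minus strand and has 3 matches, at 240, 239 and 28 bases before the start, the first 2 overlapping on opposite strands. ENO2 lies on chr12:6914330-6914629 on the plus strand and has 1 match, 118 bases before the start.
ALDOC: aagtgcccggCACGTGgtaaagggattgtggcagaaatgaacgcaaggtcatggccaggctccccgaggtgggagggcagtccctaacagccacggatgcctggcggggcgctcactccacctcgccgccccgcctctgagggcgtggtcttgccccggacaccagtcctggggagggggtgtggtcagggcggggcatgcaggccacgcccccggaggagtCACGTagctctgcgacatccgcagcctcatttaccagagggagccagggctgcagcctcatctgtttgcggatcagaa
ENO2: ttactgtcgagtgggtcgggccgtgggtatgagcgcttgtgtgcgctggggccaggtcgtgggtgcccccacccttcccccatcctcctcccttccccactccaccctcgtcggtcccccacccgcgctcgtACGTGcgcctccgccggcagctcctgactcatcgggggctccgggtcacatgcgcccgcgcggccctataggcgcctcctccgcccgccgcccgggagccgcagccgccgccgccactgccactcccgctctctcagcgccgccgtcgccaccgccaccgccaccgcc
The motif was in 14 of 33 promoters of the hypoxia list (42.4%), against 27% of promoters of tested genes and 21.6% of all promoters. PDK3, which was not called, was among those 14. Among genes with no near copy that changed at least 2-fold, the motif was in 24.6% of the 280 promoters of lower genes. It was in 24.4% of the 242 of higher genes.

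Immediate-early genes and the feedback genes of MAPK signalling were lower in 24 of 34 and higher in 0 (edgeR, DESeq2 and limma voom; 0 at an unadjusted p under 0.05; median -0.64), and of the 29 with no near copy in 19 and 0. With the library number as a block, or with no filter, 1 was higher. These genes answer growth factor signals within minutes, and the DUSP and SPRY proteins shut the signal off again. FOSL2, an AP-1 subunit, had 1.74, 1.67 and 2.13 CPM with TG003, against 5.48, 6.62 and 8.88 CPM with DMSO (-1.92 ± 0.19, adjusted p = 1.7e-06). DUSP5, a phosphatase of ERK with a near copy, had 38.98, 48.4 and 49.99 CPM with TG003, against 142, 164 and 192 CPM with DMSO (-1.86 ± 0.13). DUSP4 had 19.7, 19.4 and 19.96 CPM with TG003, against 33.9, 33.5 and 38.2 CPM with DMSO (-0.84 ± 0.08). Each was lower in all 3 TG003 libraries than in any DMSO library. SPRY2 was at -0.90 ± 0.10, JUN at -0.97 ± 0.19, ZFP36, which destabilises cytokine messengers, at -1.09 ± 0.16, and KLF6 at -0.64 ± 0.09. MYC had 1455, 1348 and 1444 CPM with TG003, against 1912, 1928 and 1987 CPM with DMSO (-0.46 ± 0.07). DUSP6 was not called (0.12 ± 0.08), nor was SPRED1 (-0.05 ± 0.13).

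Of 19 tested cytokine and chemokine genes 12 were lower and 0 higher (edgeR, DESeq2 and limma voom; 0 at an unadjusted p under 0.05; median -0.64). Without DMSO replicate 3 the median was -0.405, and 1 gene was higher with the compared groups alone. IL32, a cytokine that myeloma cells secrete, had 925, 872 and 836 CPM with TG003, against 1711, 1946 and 1862 CPM with DMSO (-1.07 ± 0.08, adjusted p = 1.68e-07). CXCL16 had 5.63, 4.75 and 6.06 CPM with TG003, against 19.7, 19.8 and 21.4 CPM with DMSO (-1.89 ± 0.11). Both pairs of groups were separate by about 2-fold or more. MIF was lower at -1.25 ± 0.20 and VEGFB at -0.69 ± 0.11. CCL3L1, at most 2.7 CPM in any library, was at -2.62 ± 0.32 and has a near copy. CCL20 (-0.20 ± 0.22) and LTB (0.07 ± 0.32) were not called.

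**Figure D3:**
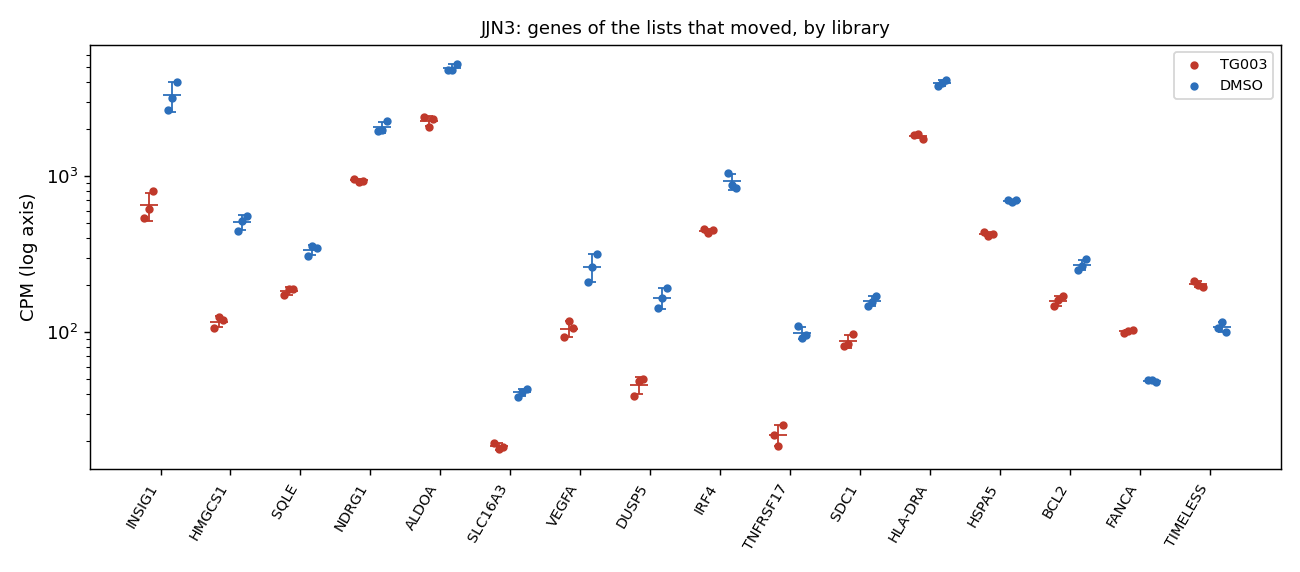
CPM (log axis) of 16 genes from the lists in each JJN3 library, with TG003 (red, left of each pair) and DMSO (blue, right); bars give the mean and SD of the 3 libraries. TG003 libraries lie below DMSO libraries without overlap from INSIG1 to BCL2 and above them in the last 2 genes, FANCA and TIMELESS.

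Of 22 tested genes of plasma cell identity, 17 were lower and 2 higher (median -0.62), or 13 and 2 of the 18 with no near copy (median -0.57). IRF4, on which myeloma cells depend, had 456, 432 and 452 CPM with TG003, against 1053, 877 and 839 CPM with DMSO (-1.05 ± 0.12, adjusted p = 1.36e-05). TNFRSF17, which encodes the therapeutic target BCMA (chromosome 16, 12059067 to 12061925, GRCh37, plus strand), had 21.9, 18.5 and 25.3 CPM with TG003, against 109, 91.7 and 95.5 CPM with DMSO (-2.17 ± 0.25). SDC1, the CD138 surface marker, had 81.3, 83.3 and 96.4 CPM with TG003, against 148, 156 and 171 CPM with DMSO (-0.86 ± 0.08). TG003 libraries were below DMSO libraries throughout. PRDM1 (-0.52 ± 0.14) and XBP1 (-0.42 ± 0.09, near copy), which drive the plasma cell programme, fell by less, as did the coactivator POU2AF1 (-0.62 ± 0.08, near copy). TNFRSF13B was at -1.45 ± 0.12 (near copy), DERL3 at -0.82 ± 0.10 and MZB1 at -0.94 ± 0.12. The antibody joining chain JCHAIN had 1123, 1289 and 1255 CPM with TG003, against 2275, 2518 and 2716 CPM with DMSO (-1.03 ± 0.12, near copy). The 2 higher members were IKZF3 (0.22 ± 0.09), a target of lenalidomide, and EAF2 (0.35 ± 0.14). EAF2 lost its call without each library in turn (0.29 to 0.39) and with DESeq2 (adjusted p = 0.0574) or limma voom (adjusted p = 0.0504), and IKZF3 kept its call without TG003 replicate 1 and lost it without each other library (0.16 to 0.23). With pseudogene counts added to parents, and without TG003 replicate 2 or TG003 replicate 3, 0 were higher.

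Among myeloma surface antigens and adhesion molecules 16 of 26 were lower and 2 higher, with a median of -0.47. HLA-DRA, an MHC class II chain, had 1825, 1853 and 1733 CPM with TG003, against 3793, 3922 and 4154 CPM with DMSO (-1.13 ± 0.10), and its chaperone CD74 had 2301, 2056 and 2214 CPM with TG003, against 3663, 3480 and 3467 CPM with DMSO (-0.69 ± 0.12). CCR1, a chemokine receptor, had 131, 123 and 127 CPM with TG003, against 337, 327 and 355 CPM with DMSO (-1.42 ± 0.07, adjusted p = 4.26e-10). No overlap was seen in the 3 genes. ITGB7 (-0.53 ± 0.12), CXCR4 (-0.46 ± 0.07) and ICAM1 (-0.41 ± 0.10) were lower, and the integrin chain ITGB1 (0.55 ± 0.10) and the cytokine receptor chain IL6ST (0.24 ± 0.08), both with near copies, higher. ITGB1 was at 0.22 and not called with pseudogene counts added to parents (adjusted p = 0.0728), and IL6ST lost its call without TG003 replicate 2, TG003 replicate 3 or DMSO replicate 1 (0.17 to 0.23). GPRC5D and SLAMF7, both targets of antibody drugs, were near the limit of detection. GPRC5D had 0.703, 0.495 and 0.816 CPM with TG003, against 3.91, 2.86 and 3.6 CPM with DMSO (-2.38 ± 0.29), and SLAMF7 had 0.407, 0.405 and 0.345 CPM with TG003, against 2.74, 1.498 and 1.596 CPM with DMSO (-2.31 ± 0.37).

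Myeloma oncogenes did not move one way, with 9 of 27 lower and 5 higher (median -0.16), against 27.4% and 27.9% of all genes tested. MAF, the translocation partner, had 715, 784 and 884 CPM with TG003, against 726, 824 and 1012 CPM with DMSO, which overlap (-0.10 ± 0.12, adjusted p = 0.457). Its known target CCND2 was lower (-0.68 ± 0.10, near copy), as was TENT5C, a poly(A) polymerase that is often lost in myeloma (-0.83 ± 0.10). CRBN, the cereblon receptor of lenalidomide, was at 0.23 ± 0.07 and the exosome nuclease DIS3 at 0.49 ± 0.07, both higher. CKS1B, higher at 1.97 ± 0.09, has a near copy. NSD2 (-0.05 ± 0.07) and RB1 (-0.07 ± 0.07) were not called, and the count of higher members was 3 without TG003 replicate 2, TG003 replicate 3 or DMSO replicate 1.

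In the BCL2 family 8 of 15 genes were lower and 1 higher (median -0.42). BCL2 had 146, 161 and 169 CPM with TG003, against 250.5, 266 and 293 CPM with DMSO (-0.76 ± 0.08, adjusted p = 3.81e-06). BCL2L2, another protector, had 4.29, 5.56 and 3.86 CPM with TG003, against 10.1, 10.5 and 9.86 CPM with DMSO (-1.14 ± 0.14). BCL2L1 was at -0.56 ± 0.09 and MCL1 at -0.42 ± 0.09. Among pro-death members BAK1 was higher (0.60 ± 0.09, near copy), but at 0.19 and not called with pseudogene counts added to parents (adjusted p = 0.0665), and BCL2L11 was not called (0.13 ± 0.08). The lower genes named here are protectors and only some of the 8 lower members. The genes named therefore do not show how pro-death members moved as a set. Of 20 death receptor, caspase and inhibitor genes 9 were lower and 5 higher (median -0.13). FAS, the death receptor, had 313, 314 and 307 CPM with TG003, against 182, 193 and 194 CPM with DMSO (0.71 ± 0.08), while CASP10 was lower (-0.70 ± 0.07) and DIABLO higher (0.94 ± 0.10). Among 27 p53 targets 11 were lower and 4 higher (median -0.09), and the count of lower members was 5 without TG003 replicate 1 and 6 without TG003 replicate 2, DMSO replicate 2 or DMSO replicate 3. CDKN1A was lower (-0.90 ± 0.16) and TP53I3 higher (1.15 ± 0.15). The call for MDM2 as lower (-0.20 ± 0.07, near copy) was lost without TG003 replicate 1, TG003 replicate 2, DMSO replicate 2 or DMSO replicate 3 (-0.21 to -0.16) and with no filter (adjusted p = 0.0795).

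Of 37 genes for ER chaperones and ER degradation, 21 were lower and 5 higher (median -0.29), and of the 27 with no near copy 14 and 4. DNAJB11, a co-chaperone, had 94.1, 93.6 and 89.8 CPM with TG003, against 158, 153 and 133 CPM with DMSO (-0.68 ± 0.08, adjusted p = 5.82e-06). HSPA5, the main ER chaperone, had 439, 410 and 427 CPM with TG003, against 699, 679 and 701 CPM with DMSO (-0.70 ± 0.07, near copy), and HSP90B1 had 1085, 1093 and 1153 CPM with TG003, against 2131, 2227 and 2579 CPM with DMSO (-1.06 ± 0.08, near copy). The groups were apart in all 3. HERPUD1 was at -0.51 ± 0.07, PDIA6 at -0.61 ± 0.09, P4HB at -0.63 ± 0.10 and SEL1L at -0.59 ± 0.10. The stress sensor relative ATF6B was higher (1.04 ± 0.10), with ATF6 at 0.28 ± 0.06 and EDEM2 at 0.49 ± 0.08. The sensor ERN1 was not called (-0.08 ± 0.09). PDIA3, called as higher (1.34 ± 0.09, near copy), was called as lower with pseudogene counts added to parents.

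In the ATF4 and integrated stress response list 14 of 35 genes were lower and 4 higher (median -0.17), and all 14 lower ones had no near copy. VLDLR (-1.17 ± 0.18), TRIB3 (-0.39 ± 0.07) and ATF5 (-0.55 ± 0.14) were lower. ATF4 had 581, 533 and 516 CPM with TG003, against 443, 434 and 391 CPM with DMSO (0.36 ± 0.07, near copy), and ASNS was higher (0.88 ± 0.14, near copy). DDIT3, the stress factor CHOP, had 7.74, 8.26 and 6.75 CPM with TG003, against 5.26, 6.27 and 7.32 CPM with DMSO, which overlap (0.28 ± 0.14, adjusted p = 0.117). It was called without DMSO replicate 3 (0.39). DDIT4, an inhibitor of mTORC1, had 83.5, 88.2 and 127 CPM with TG003, against 171, 259 and 454 CPM with DMSO (-1.56 ± 0.37).

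Of 41 tested genes for DNA repair, 23 were higher and 3 lower, and of the 29 with no near copy 17 and 3 (median 0.29 in both). FANCA, of the Fanconi core complex that answers crosslinks, had 98.7, 102 and 103 CPM with TG003, against 49.2, 49.5 and 47.5 CPM with DMSO (1.05 ± 0.07, adjusted p = 3.25e-08). TIMELESS, which protects replication forks, had 212, 200 and 196 CPM with TG003, against 107, 116 and 100.3 CPM with DMSO (0.91 ± 0.09). The libraries of the groups lay close together and far from the other group. BRCA2 (0.83 ± 0.12), WRN (0.89 ± 0.11), FANCL (1.17 ± 0.13) and CHEK1 (0.64 ± 0.10) were higher, as were FANCD2 (1.20 ± 0.09) and ATR (0.80 ± 0.08) with near copies. The lower members were BRIP1 (-0.36 ± 0.09), FANCF (-0.34 ± 0.07) and BARD1 (-0.21 ± 0.08). BARD1 kept its call without TG003 replicate 2 and lost it without each other library (-0.23 to -0.16), with upper-quartile scaling, with no filter and with DESeq2 or limma voom.

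Replication and division genes moved both ways, as did all genes tested (27.9% higher, 27.4% lower). The G1/S counts lie near those shares. Of 55 genes of G1/S and replication 17 were higher and 15 lower (median 0.12), with the polymerase POLD1 (0.92 ± 0.10) and RBL1 (0.75 ± 0.07) higher and the repressor E2F7 lower (-0.98 ± 0.09). Of 53 genes of G2/M 12 were higher and 19 lower (median -0.01), with KIF15 (0.64 ± 0.08) and CENPM (0.70 ± 0.09) higher and PRC1 lower (-0.46 ± 0.08). Replication-dependent histones, whose messengers normally lack a poly(A) tail, were higher in 11 of the 16 tested of 51 and lower in 0 (edgeR, DESeq2 and limma voom; 0 at an unadjusted p under 0.05), with a median of 0.90. H2AC6 had 80.5, 59.5 and 85.4 CPM with TG003, against 32.4, 26.2 and 38.6 CPM with DMSO (1.22 ± 0.17), and H1-3 had 1.26, 0.742 and 0.659 CPM with TG003, against 0.213, 0.109 and 0 CPM with DMSO (2.92 ± 0.52). Groups did not overlap in either gene, and H1-3 was near the limit of detection. With a filter of 1 CPM in 3 libraries, 7 histones were higher and the median was 0.67. A histone with few reads with DMSO could pass the filter only through another group. Such a gene could hardly be called lower, so the count of 0 lower is no support for a rise.

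Of 46 MYC targets and ribosome biogenesis genes, 24 were higher and 4 lower (median 0.25), and of the 22 with no near copy 12 and 2 (median 0.26). UTP4, of the small-subunit processome, had 255, 234 and 247 CPM with TG003, against 127, 116 and 114 CPM with DMSO (1.04 ± 0.07, adjusted p = 4.48e-08). UTP20 had 64.9, 74.4 and 68.04 CPM with TG003, against 43.2, 44.4 and 35.9 CPM with DMSO (0.75 ± 0.10). The groups did not overlap. RRP9 (1.29 ± 0.16), RRP12 (0.76 ± 0.11), NOP2 (0.55 ± 0.09) and WDR43 (0.46 ± 0.07) were higher. FBL, the methyltransferase of box C/D particles, was lower (-0.69 ± 0.08), as were PPAN (-0.35 ± 0.13), NCL (-0.32 ± 0.08) and C1QBP (-0.31 ± 0.07), the last 2 with near copies. PPAN lost its call without TG003 replicate 2, TG003 replicate 3, DMSO replicate 1 or DMSO replicate 3 (-0.34 to -0.29). NPM1 and HSPE1 have near copies. NPM1 was at 1.71 and HSPE1 at 1.82, or 0.55 and 0.63 with pseudogene counts added to parents.

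**Figure D4:**
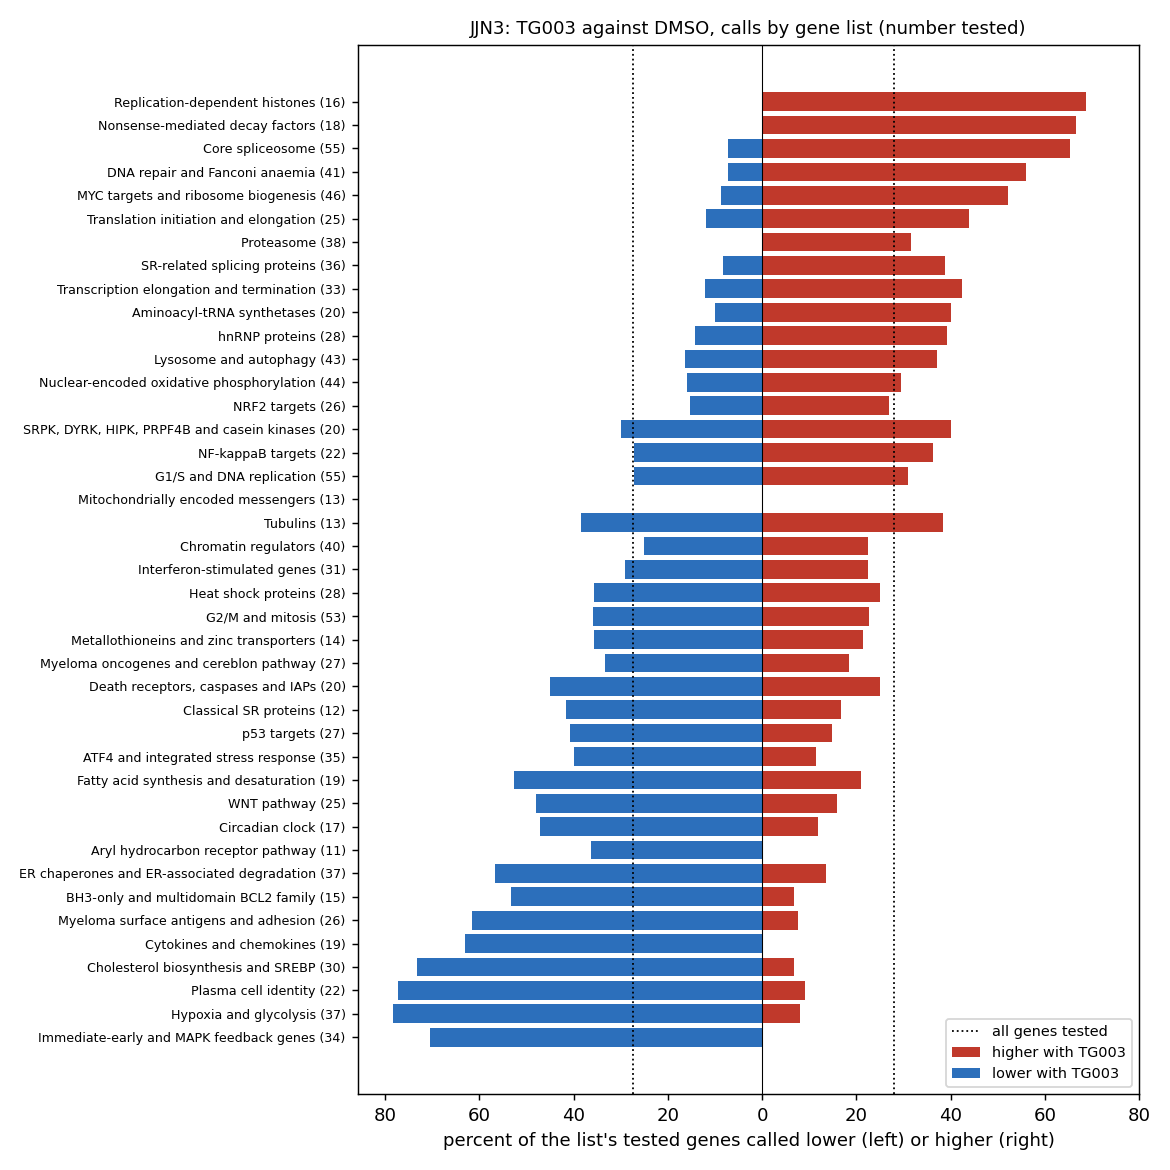
Percent of the tested genes of each list with at least 10 of them that were called lower (blue, left of 0) or higher (red, right of 0) with TG003 over DMSO in JJN3, with the number tested in parentheses and dotted lines at the shares of all genes tested, 27.4% lower and 27.9% higher. Immediate-early, hypoxia, plasma cell and cholesterol lists lie furthest to the left and histones, decay factors, the core spliceosome and DNA repair furthest to the right.

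The remaining lists are given by their counts. Over all genes tested 27.9% were higher and 27.4% lower, and over those with no near copy 25.9% and 29%. Mitochondrially encoded messengers, all with near copies in the nuclear genome, were called in 0 of 13 (edgeR, DESeq2 and limma voom; 0 at an unadjusted p under 0.05; median -0.05). MT-CO1 had 4420, 6228 and 4712 CPM with TG003, against 5546, 6065 and 5036 CPM with DMSO (-0.12 ± 0.13), which overlap, and without TG003 replicate 2 it was called at -0.28 and MT-ND4L at -0.40, and the median of the 13 was -0.258. That median was 0.0838 without TG003 replicate 1, 0.0596 without TG003 replicate 3 and 0.0645 without DMSO replicate 2. Of 44 nuclear-encoded genes of oxidative phosphorylation 13 were higher and 7 lower, of 38 proteasome genes 12 and 0 (also 0 with DESeq2 and limma voom; 0 at an unadjusted p under 0.05), of 43 lysosome genes 16 and 7, and of 25 translation factors 11 and 3, or 7 and 6 with pseudogene counts added to parents. With no near copy, 2 of 13 genes of oxidative phosphorylation were higher and 2 lower, and of 19 proteasome genes 4 and 0 (median 0.01). Of 35 such lysosome genes 12 were higher and 7 lower, and of 10 translation factors 1 and 1. In the whole list of oxidative phosphorylation, the count of lower members was 2 without TG003 replicate 2 and 4 without DMSO replicate 1. For all lysosome genes it was 4 without TG003 replicate 2. With no filter 21 genes of oxidative phosphorylation were higher, and 1 proteasome gene was lower with pseudogene counts added to parents, with the library number as a block, with the compared groups alone and without DMSO replicate 3. Of 28 heat shock genes 7 were higher, or 3 with pseudogene counts added to parents, and 10 lower, of 26 NRF2 targets 7 and 4, of 22 NF-kappaB targets 8 and 6, of 31 interferon genes 7 and 9, and of 40 chromatin regulators 9 and 10. Among these, IRF1 was at -1.08 ± 0.12, SRXN1 at 2.35 ± 0.27, NFKBIA at 0.59 ± 0.13 and DNMT3A at -0.83 ± 0.10 (near copy). For interferon genes the count of higher members was 3 without TG003 replicate 1, 4 without TG003 replicate 2 or each DMSO library, and 4 with DESeq2 or limma voom. Of 11 genes of the aryl hydrocarbon receptor pathway 4 were lower and 0 higher (edgeR, DESeq2 and limma voom; 0 at an unadjusted p under 0.05). CYP1B1 had 3.63, 3.26 and 3.797 CPM with TG003, against 7.33, 9.099 and 7.57 CPM with DMSO (-1.18 ± 0.14), AHRR was at -0.61 ± 0.11 and TIPARP at -0.49 ± 0.11, while CYP1A1, at most 1.64 CPM in any library, was not called (-0.41 ± 0.23).

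The response to the same dose and time of TG003 was set against that in KMS12-BM by an interaction term over all 18 libraries, with a log2 difference of JJN3 minus KMS12-BM. Of 12957 genes tested, 1058 (8.17%) had a higher response in JJN3 and 1035 (7.99%) a lower one, and of 9359 with no near copy 696 (7.44%) and 780 (8.33%). The response of CLK1 was 1.99 ± 0.14 in JJN3 and 1.88 ± 0.16 in KMS12-BM, and the difference of 0.07 ± 0.22 was not called (adjusted p = 0.945). That of CLK4 was -0.60 ± 0.21 (adjusted p = 0.0648), and it was called with the library number as a block (-0.62, adjusted p = 0.00501), with upper-quartile scaling, with no filter, with DESeq2, with a GC trend removed and without DMSO replicate 1 of JJN3 or DMSO replicate 3 of KMS12-BM (-0.71 to -0.58). CLK2 rose more in JJN3 (difference 0.50 ± 0.14) and CLK3 less (-0.72 ± 0.14). The call for CLK2 was lost without TG003 replicate 2 of JJN3 or TG003 replicate 1 of KMS12-BM (both 0.46). CLK2, CLK3, SRSF2, SRSF3 and SRSF6 have near copies. SR genes differed: SRSF2 (0.56 ± 0.13), SRSF3 (0.64 ± 0.12), SRSF6 (0.51 ± 0.14), SRSF7 (0.69 ± 0.11) and TRA2B (0.38 ± 0.11) had higher values in JJN3, where the KMS12-BM responses were -0.79 ± 0.09, -0.52 ± 0.08, -0.22 ± 0.10, -0.57 ± 0.08 and -0.35 ± 0.07. The call for SRSF6 was lost without DMSO replicate 3 of JJN3, TG003 replicate 2 of KMS12-BM or DMSO replicate 1 of KMS12-BM (0.44 to 0.48), and that for TRA2B without DMSO replicate 3 of JJN3 or TG003 replicate 2 of KMS12-BM (0.34 to 0.35).

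Ribosome biogenesis differed most often, with 29 of 46 genes higher in the JJN3 response and 1 lower (median difference 0.53). UTP4 responded by 1.04 ± 0.07 in JJN3 and 0.35 ± 0.10 in KMS12-BM (difference 0.67 ± 0.14, adjusted p = 0.00296), and ODC1 by 0.30 ± 0.08 and -0.64 ± 0.11 (difference 0.91 ± 0.15). Cholesterol genes were lower in the JJN3 response in 13 of 30 and higher in 1. INSIG1 fell by 2.34 in JJN3 and by 1.25 in KMS12-BM (difference -1.12 ± 0.27), and HMGCS1 by 2.12 and 1.08 (difference -1.07 ± 0.21). Of 37 hypoxia genes 10 had a lower response in JJN3 and 1 a higher one, with ALDOA at -0.55 ± 0.13. The interferon factor IRF1 responded by -1.08 ± 0.12 in JJN3 and 0.54 ± 0.14 in KMS12-BM (difference -1.66 ± 0.19). SDC1 (1.23 ± 0.16), HSPA5 (1.01 ± 0.13), XBP1 (0.67 ± 0.14) and AHRR (1.55 ± 0.17) fell less in JJN3 than in KMS12-BM. HMGCS1, ALDOA, HSPA5 and XBP1 have near copies. For IRF4 (0.25 ± 0.14), FANCA (-0.25 ± 0.12) and TIMELESS (0.06 ± 0.13) the difference was not called.

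**Figure D5:**
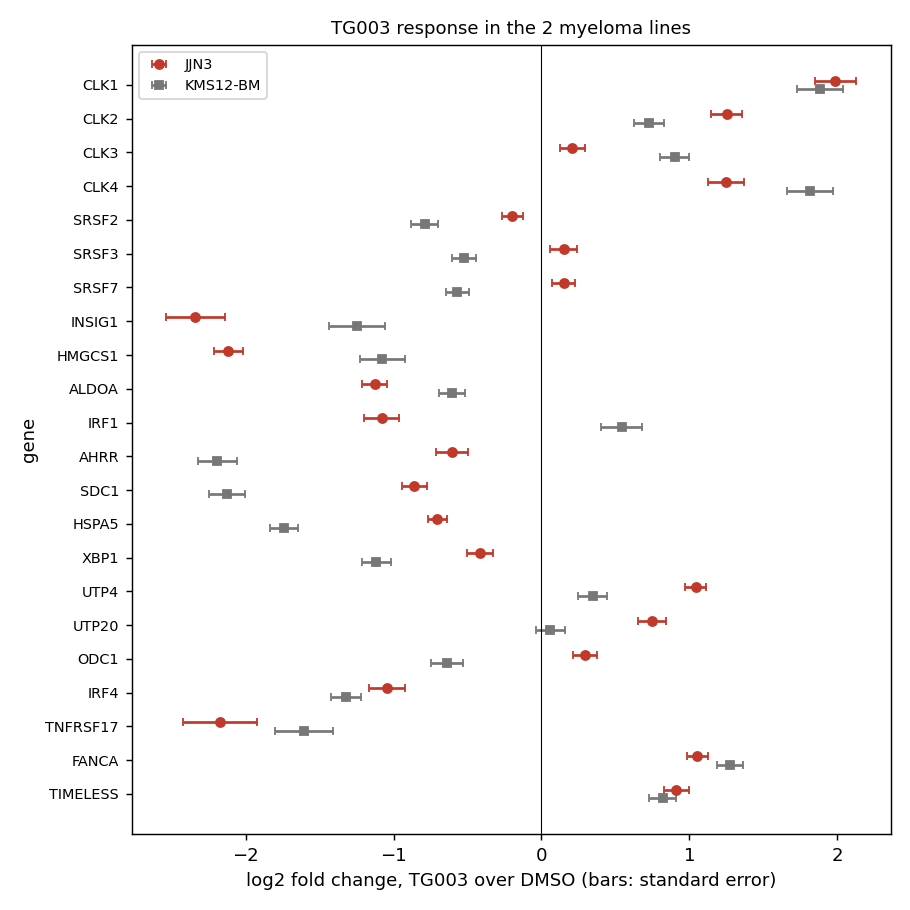
Log2 fold change of TG003 over DMSO (x axis, bars give the standard error) for 22 genes (y axis) in JJN3 (red circles) and KMS12-BM (grey squares), with the JJN3 values from the 9 libraries of that line and the KMS12-BM values from all 18. CLK1, IRF4 and TIMELESS lie close together in the lines, ODC1 and UTP20 lie further right in JJN3, and INSIG1, HMGCS1 and IRF1 lie further left in JJN3.

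Against amiloride at the same dose and time in JJN3, 3725 genes were higher with TG003 (31.3%) and 3419 lower (28.7%); this comparison shares the TG003 libraries with the one above. Mitochondrial messengers were higher with TG003 in 12 of 13 and lower in 1 (median 1.78). MT-CO1 averaged 5120 CPM with TG003, against 547 CPM with amiloride (log2 3.23 ± 0.14, n = 3 each). Of 41 DNA repair genes 31 were higher and 3 lower (median 0.52), and of 34 immediate-early genes 23 were lower (median -0.87). CLK1 was higher with TG003, 90.1, 109 and 102 CPM, against 48.8, 46.6 and 68.4 CPM with amiloride (0.87 ± 0.13), and CLK4 by 1.25 ± 0.12. Every amiloride library also lay above every DMSO library in CLK1, so a raised CLK1 level was not particular to TG003. Amiloride was not tested against DMSO here. Of 37 hypoxia genes 15 were higher and 5 lower, and of 30 cholesterol genes 6 were higher and 7 lower. INSIG1 was at -0.17 ± 0.19 (adjusted p = 0.464) and NDRG1 at -0.0027 ± 0.09 (0.981), neither called. The falls of INSIG1 and NDRG1 from DMSO were therefore not shown to be particular to TG003. With no near copy, the largest rises over amiloride were DGAT1 (2.58 ± 0.11), LHPP (2.51 ± 0.13), TTC12 (2.51 ± 0.14), EPHX2 (2.46 ± 0.16) and MAP4K2 (2.33 ± 0.14), and the largest falls CCR2 (-3.47 ± 0.15), CCL2 (-2.89 ± 0.36), CYP1B1 (-2.71 ± 0.14), EMP1 (-2.70 ± 0.25) and IGF1 (-2.59 ± 0.09).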

How the data were processed

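Poly(A)+ RNA of JJN3 and KMS12-BM cells was isolated with RNeasy Plus Mini columns and made into strand-specific TruSeq libraries, per the labels' protocols. The submitters' processing notes name cutadapt 1.4, TopHat2 2.0.11, HTSeq 0.6.1p1, DESeq2 1.12.4 and the hg19 genome; options, annotation and strand setting of the counting: not given in the sources used here. Deposited values are raw read counts per gene and library, and 3 deposited normalized matrices were not used. Gene classes and symbols came from GENCODE v44 lifted to GRCh37, which held 55538 of the 57905 gene identifiers. Summary lines of the count files (reads with no feature, or aligned to more than 1 place) stayed out of library sizes; reads with no feature came to 6.42% to 7.17% of the listed reads with TG003, against 11.4% to 11.8% with DMSO in JJN3.

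From the counts, edgeR 4.0.16 in R 4.3.3 fitted a quasi-likelihood model with TMM factors to the 9 JJN3 libraries (genes kept by filterByExpr with a minimum count of 10 and a total of 15), and an interaction model to all 18 libraries. Every adjusted p is a Benjamini-Hochberg value over all genes tested, also where members alone are counted, and a standard error is the size of the log2 fold change over the square root of F. Total reads in genes, given in the report, limit the precision of genes with few reads. Alternatives were DESeq2 1.42.0, limma 3.58.1 voom, other scalings and filters, a GC trend removed, the compared groups alone, pseudogene counts added to the parent gene named by their symbol, and each library left out in turn. Near copies were found with minimap2 2.31 and were defined after values were seen.

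Genes were named by these rules: the 12 rises and 12 falls largest in fold among called genes that carry a symbol, do not overlap between groups and average at least 5 CPM; the 5 rises and 5 falls largest in mean CPM difference; up to 3 members with the smallest adjusted p in each list; and a set of CLK, SR, plasma cell and stress genes. The same rules among genes with no near copy, and further list members, were added after values were seen. Some genes these rules name are not reported here. Members and all 44 lists were chosen with earlier results of these data known. Library numbers in the titles run in sets across groups. Deviations from the group means correlated at 0.233, 0.212 and 0.215 between JJN3 libraries of the same set and at -0.166 to -0.059 between sets, so a replicate block was fitted as an alternative; it called 7015 genes, 6538 of them among the 6593 called without the block. Simulated data with 15337 genes were made from the means of the JJN3 DMSO libraries, with a spread set by expression level. On these the test recovered 77 of 100 genes changed 1.5-fold, 49 of 50 changed 2-fold and 50 of 50 changed 4-fold, with 10 false calls. Few genes were changed, none of them at low counts, and no shift in read placement was built in. These figures therefore do not measure recovery or false calls in the comparison itself.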

Additional observations from a re-analysis of the deposited data

Results flagged for a closer look

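The response to TG003 differed between the lines in 1058 genes with a higher log2 value in JJN3 and 1035 with a lower one (edgeR interaction test over all 18 libraries, of 12957 genes). The genes below were picked out because this test of the difference between lines was past the threshold, and values are log2 differences, JJN3 minus KMS12-BM, with 3 libraries in each group.

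Among splicing genes the difference was 0.50 for CLK2, -0.72 for CLK3, 0.56 for SRSF2, 0.64 for SRSF3, 0.51 for SRSF6, 0.69 for SRSF7, 0.38 for TRA2B and 0.55 for CSNK1D. Among sterol genes it was -1.12 for INSIG1, -1.07 for HMGCS1 and -0.63 for STARD4. Among hypoxia, signalling and proliferation genes it was -0.55 for ALDOA, 0.53 for MYC, -1.05 for WNT10A, -2.72 for CDKN1C, -2.88 for EMP1 and -0.91 for BCL2L2. Among plasma cell, ER and interferon genes it was 1.23 for SDC1, 0.67 for XBP1, 1.01 for HSPA5, -1.66 for IRF1 and 1.55 for AHRR. Among growth genes it was 0.67 for UTP4, 0.66 for UTP20, -0.40 for FBL, 0.75 for BOP1, 0.91 for ODC1, 0.49 for DNMT1 and 1.31 for RARS2.

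The largest positive differences among genes with a mean of at least 5 CPM were 4.21 for NRIP1, 4.16 for EIF2S3B, 3.47 for ZNF578, 3.34 for EIF5AL1 and 2.81 for BTK. The largest negative ones were -4.27 for CYTL1, -4.19 for AK4, -3.35 for TBC1D30, -3.18 for FMN1 and -3.10 for ZNF256. The CPM limit was not applied within each line, so a gene with few reads in JJN3 or in KMS12-BM could pass. These values therefore need not mark the strongest differences between the lines. EIF2S3B, EIF5AL1, AK4, FMN1 and, above, CLK2, CLK3, SRSF2, SRSF3, SRSF6, HMGCS1, ALDOA, XBP1, HSPA5 and BOP1 have a near copy elsewhere in the genome. NRIP1, a corepressor of nuclear receptors, responded by 0.10 ± 0.08 in JJN3 and by -4.14 ± 1.15 in KMS12-BM. BTK, a kinase of B cell receptor signalling, responded by 2.19 ± 0.45 in JJN3 and by -0.64 ± 0.12 in KMS12-BM. In JJN3 it had 0.9255, 0.6974 and 0.9415 CPM with TG003, against 0.2846, 0.05448 and 0.2455 CPM with DMSO. The JJN3 response of BTK thus rests on 86 reads with TG003 and 16 with DMSO. In KMS12-BM the gene averaged 130.3 CPM with TG003, against 203.8 CPM with DMSO. AK4, a mitochondrial adenylate kinase, responded by -0.70 ± 0.11 in JJN3 and by 3.46 ± 0.76 in KMS12-BM. The call for RARS2 was lost without DMSO replicate 3 of JJN3 (1.16). The call for NRIP1 was lost without each TG003 library of KMS12-BM (4.19 to 4.22) or DMSO replicate 2 of KMS12-BM (3.09), and that for FMN1 without TG003 replicate 1, DMSO replicate 1 or DMSO replicate 2 of KMS12-BM (-2.88 to -2.66). The call for ZNF256 was lost without TG003 replicate 3 of JJN3, TG003 replicates 1 or 3 of KMS12-BM or DMSO replicates 1 or 2 of KMS12-BM (-3.13 to -2.65), with no filter and with DESeq2. Those for CLK2, SRSF6 and TRA2B are given with their libraries in the report.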

How the results depend on the processing

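Over the members of each comparison, 122 of 126 recomputed counts stayed within 1.5 times the reported one. The exceptions were the members higher with TG003 than with DMSO, 2200 with no near copy in place of 3329, and the members with a higher response in JJN3 than in KMS12-BM, 1639 with pseudogene counts added to parents, 1609 in the compared groups alone and 696 with no near copy, in place of 1058. The counts with no near copy come from fewer genes tested. As shares of the genes tested they were 25.9% in place of 27.9%, and 7.44% in place of 8.17%. The cause of the rise to 1639 and 1609 was not tested. The replicate block gave 7015 calls and changed no count over all members by over 1.5 times. Among the genes recomputed it ended the call for VIM and, against amiloride, AMPD1 (adjusted p = 0.0884). It called CLK3, between lines CLK4, ATF4 (0.34) and TIPARP (-0.41), and against amiloride MYC (0.18). Leaving out 1 library gave 5770 to 6126 calls. Many of the 366 genes recomputed were chosen for large or clear changes in this comparison, so they do not stand for all calls. Of the 366, 327 kept their call and direction in every alternative of the first comparison. Those that turned round did so with pseudogene counts added to parents: PSMC1 (-0.0505), EEF1B2 (-0.3832), EIF4E (-0.3024), TPI1 (-0.3942) and PDIA3 (-0.375), and PSMC1 against amiloride (-0.2832). Over all members, 47 of the 6593 called genes changed direction with pseudogene counts added to parents. The median of the per-gene shifts in log2 was at most 0.0158 in size in every setting. Only genes with more than a few reads in some of the libraries can pass the filter, and splice forms, protein and kinase activity were not measured. All JJN3 values come from 1 line, 1 dose and 1 time, and read placement differed with the group.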

Other observations

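Over all genes tested 27.9% were higher with TG003 and 27.4% lower, and the list counts here and in the next paragraph are to be read beside these shares. Of 25 WNT pathway genes 12 were lower with TG003 and 4 higher (median -0.11). LRP5, a WNT coreceptor with a near copy, had 53.97, 49.8 and 53.2 CPM with TG003, against 86.5, 94.97 and 91.6 CPM with DMSO (log2 -0.80 ± 0.08), and AXIN2, a feedback inhibitor that WNT signalling induces, was at -0.72 ± 0.13. APC, which marks beta-catenin for decay, had 96.3, 118 and 103 CPM with TG003, against 60.7, 67.4 and 61.1 CPM with DMSO (0.75 ± 0.08). The groups did not overlap in LRP5 or APC. The count of lower members was 7 without TG003 replicate 2, DMSO replicate 2 or DMSO replicate 3, and that of higher members 7 with a GC trend removed. Of 17 clock genes 8 were lower and 2 higher (median -0.10), and 1 was higher without TG003 replicate 1, TG003 replicate 3 or DMSO replicate 3. NFIL3, which opposes clock activators of the PAR family, had 35.3, 39.6 and 44.8 CPM with TG003, against 89.3, 88.3 and 102 CPM with DMSO (-1.22 ± 0.11), and the repressor BHLHE41, with a near copy, had 13.3, 10.2 and 12.7 CPM with TG003, against 31.2, 26.6 and 30.5 CPM with DMSO (-1.30 ± 0.12). Both lay lower in every TG003 library.

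Of 20 aminoacyl-tRNA synthetases 8 were higher and 2 lower (median 0.23), and 4 were higher without DMSO replicate 3. Of the 2, 1 was lower without TG003 replicate 2, TG003 replicate 3, DMSO replicate 2 or DMSO replicate 3. CARS1 was at 0.74 ± 0.09 and RARS1 at 0.58 ± 0.09, both with near copies. Of 13 tubulins 5 were higher and 5 lower (median -0.02, or 0.147 with no filter), with TUBB4A at -0.95 ± 0.12 and TUBG1 at 0.67 ± 0.08, both with near copies. Of 14 metallothioneins and zinc transporters 3 were higher and 5 lower (median -0.04), with the zinc exporter SLC30A1 at -0.81 ± 0.08 and the importer SLC39A8 at -0.74 ± 0.07. Of 8 tested markers of other blood and stromal cells 2 were higher and 2 lower, and 4 were lower with a GC trend removed or with the compared groups alone. The lower count was 1 without TG003 replicate 2, DMSO replicate 1 or DMSO replicate 2 and with DESeq2, and the higher count 1 with the compared groups alone or a filter of 1 CPM in 3 libraries. Among 15 antibody genes 1 was tested, IGLL5, which was lower (-0.82 ± 0.23, near copy). It lost its call without TG003 replicate 2 (-0.67) and was at -0.52 without DMSO replicate 3.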
